A study of Mus musculus with 6 samples.

Results

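The genes described here are 5 genes of red cells and heme in the ovary of the newborn mouse: the transcription factor gene Gata1, the heme synthesis gene Fech, the alpha globin gene Hba-a1, the biliverdin reductase gene Blvrb and the red cell surface gene Ermap. They were chosen with earlier results of these data known, and were taken by name. Every probe was used whose annotation names biliverdin reductase B, GATA binding protein 1, ferrochelatase, erythroblast membrane-associated protein or the adult alpha chain 1 of hemoglobin. They are 5 of the 2440 gene names in the array annotation, and each of them had 1 probe among 8272 probes in all. The ovaries came from C57Bl/6J pups at day 2 and day 4 after birth, and day 0 pups (under 24 hours old) gave the reference RNA. The 6 spotted 2-colour cDNA arrays, 3 for day 2 and 3 for day 4, each carried ovary RNA of the later day in Cy5 and day 0 ovary RNA in Cy3. Each value is the log2 of the later signal divided by the day 0 signal, averaged over 4 repeats on a slide, so that a value below 0 is a lower signal at the later day. The series asks which genes change when ovarian follicles assemble and begin to grow.

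Red cells are made from erythroblasts, which switch on globin, heme and membrane genes under Gata1 and then lose their nucleus. Ferrochelatase, encoded by Fech, puts iron into the porphyrin ring in the last step of heme synthesis, and the finished heme is carried by the alpha and beta globin chains. Heme breakdown starts with heme oxygenase, which opens the ring. Blvrb encodes biliverdin reductase B, a reductase of flavins and of some forms of the open pigment. Blood reaches the ovary through its vessels, and the ovary itself is not known as a site of red cell production. Fech and Blvrb are also used by cells other than red cells, and Gata1 also by megakaryocytes and mast cells.

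Promoters of genes of this group are shown because Gata1, one of the members, encodes a factor that binds GATA letters. The sequences are the 250 bases before the listed start in RefSeq's GRCm38.p6 table, 5′ to 3′ on the strand of the gene, with matches to a GATA motif (AGATAA on either strand, or the same letters with T first, with G last, or both) in capitals.
Ermap, chr4:119189996-119190245, minus strand: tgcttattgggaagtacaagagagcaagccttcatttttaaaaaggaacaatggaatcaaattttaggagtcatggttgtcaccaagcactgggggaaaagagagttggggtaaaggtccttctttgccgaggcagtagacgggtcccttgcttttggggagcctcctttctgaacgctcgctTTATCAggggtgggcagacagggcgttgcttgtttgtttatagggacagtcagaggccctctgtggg
Hba-a1, chr11:32283422-32283671, plus strand: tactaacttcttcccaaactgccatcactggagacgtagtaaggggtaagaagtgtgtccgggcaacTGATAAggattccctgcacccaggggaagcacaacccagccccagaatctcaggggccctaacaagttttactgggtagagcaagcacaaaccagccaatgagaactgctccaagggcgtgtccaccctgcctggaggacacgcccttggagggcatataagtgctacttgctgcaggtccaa
Blvrb, chr7:27447728-27447977, plus strand: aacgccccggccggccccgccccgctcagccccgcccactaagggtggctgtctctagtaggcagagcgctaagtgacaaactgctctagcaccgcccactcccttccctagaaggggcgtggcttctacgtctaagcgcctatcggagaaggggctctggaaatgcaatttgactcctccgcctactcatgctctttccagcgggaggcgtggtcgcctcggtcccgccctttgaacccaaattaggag
Gata1, chrX:7967911-7968160, minus strand: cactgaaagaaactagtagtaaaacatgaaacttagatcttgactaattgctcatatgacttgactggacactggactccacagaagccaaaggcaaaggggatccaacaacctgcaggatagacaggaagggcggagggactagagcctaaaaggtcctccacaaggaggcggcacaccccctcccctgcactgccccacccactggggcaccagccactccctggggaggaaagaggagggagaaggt
Counted from the start, the Ermap window held TGATAA on its opposite strand at −67 to −62. The Hba-a1 window held TGATAA at −183 to −178, on the strand shown. The first of 2 listed Blvrb promoters and the 1 listed Gata1 promoter held no match, and the second Blvrb promoter held TGATAG at −196 to −191. The Gata1 window lies inside the span listed for the gene (chrX:7959260-7976663), so the 5′ end of that span was not read. The second Blvrb window also lies inside its gene (chr7:27447978-27465981). A match occurred in 26.54% of the 32851 promoters in the table, so that such letters are common in windows of this length. A CACCC motif was searched in 2 forms only (CCACACCC or CCGCACCC on either strand), which are among the letters that erythroid Krüppel-like factors bind. Neither form was in the 5 windows read, which were 1 each for Ermap, Hba-a1 and Gata1 and 2 for Blvrb. A match was in 4.676% of all promoters, and other forms of such letters were not searched. The promoter of Fech was not read for either motif. These letters are not shown to be bound in the ovary. The promoters of Hba-a1 and of its neighbouring copy Hba-a2 were identical over 297 of 297 bases, and a spotted cDNA probe for one of 2 near-identical alpha globin genes can take up RNA of the other, so the Hba-a1 values may hold both.

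Some features of the arrays bear on every value below. Day 0 RNA was in Cy3 on all 6 arrays, so that a difference from day 0 and a dye bias of a gene cannot be told apart. One day 0 RNA served for array 3 of day 2 and array 3 of day 4, and the number of pups behind an RNA is not given in the sources used here. Arrays 1 and 2 of day 2 were correlated negatively across probes (r −0.6755 over 8272 probes, which are not independent replicates), although their labels state the same dyes and ages. Whether array 1 or array 2 runs against its stated direction is not known and was not tested. Across probes, array 1 of day 2 had r 0.27, 0.18 and 0.02 with day 4 arrays 1, 2 and 3. Array 2 of day 2 had r 0.11, 0.24 and 0.22 with them. With day 2 array 3, r was 0.02 for array 1 and 0.23 for array 2. The direction at day 2 is open. Results that rest on day 2 are given a second time with array 1 or array 2 reversed in sign. Medians of all probes lay between −0.0027 and 0.023 on the 6 arrays. Day 4 array 3 had values for 5630 probes and day 4 array 1 for 7775, and the other 4 arrays had all 8272. To describe the tissue, 6 of 19 listed oocyte genes were measured. That list was chosen with earlier results of these data known, so that it is no independent check. By the brightest probe of each gene, H1f8 and Oas1d passed the test at day 4, and so did 1 of the 2 dimmer probes of Gdf9. Of 18 listed red cell markers 3 were measured, all of them members (Hba-a1, Gata1 and Ermap), so that no red cell marker independent of the group was at hand.

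At day 4, 4 of the 5 genes lay below day 0 on every array that measured them, and the fitted log2 ratios of all 5 were below 0, against 50.2% of all probes. The 5 genes were chosen with earlier results of these data known, so that shares of all probes beside their counts are background and no test. None of the 5 passed limma at an adjusted p under 0.05 over the 8135 probes tested, where 0.479% of all probes (39) passed, all of them higher at day 4. With the array number as a block 21 probes passed, 1 of them lower at day 4, again with none of the 5. The log2 ratio against day 0 was −1.46 ± 0.26 for Blvrb (SE, n = 2 arrays), −1.05 ± 0.35 for Fech (n = 3), −0.88 ± 0.35 for Ermap (n = 3), −0.57 ± 0.16 for Gata1 (n = 2) and −0.48 ± 0.72 for Hba-a1 (n = 2). Values below 0 on every array with a value were found for 25.2% of all probes. An unadjusted p under 0.05 with a lower signal was found for 4.29% of all probes and for 4 of the 5 genes, all but Hba-a1. With the array number as a block it was found for all 5, Hba-a1 included, at an unadjusted p only. The block takes differences between array numbers out of the SE, so that its p leaves out this part of the spread. The count of 4 without the block rested on single arrays: it was 0 of the 3 genes tested without day 4 array 1, 1 of 2 without day 4 array 2, 2 of 4 without day 4 array 3, 2 of 4 without array 3 of both ages and 3 of 5 without day 2 array 3. In RNA of a whole ovary, fewer cells of a type and less RNA per cell cannot be told apart.

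**Figure D1:**
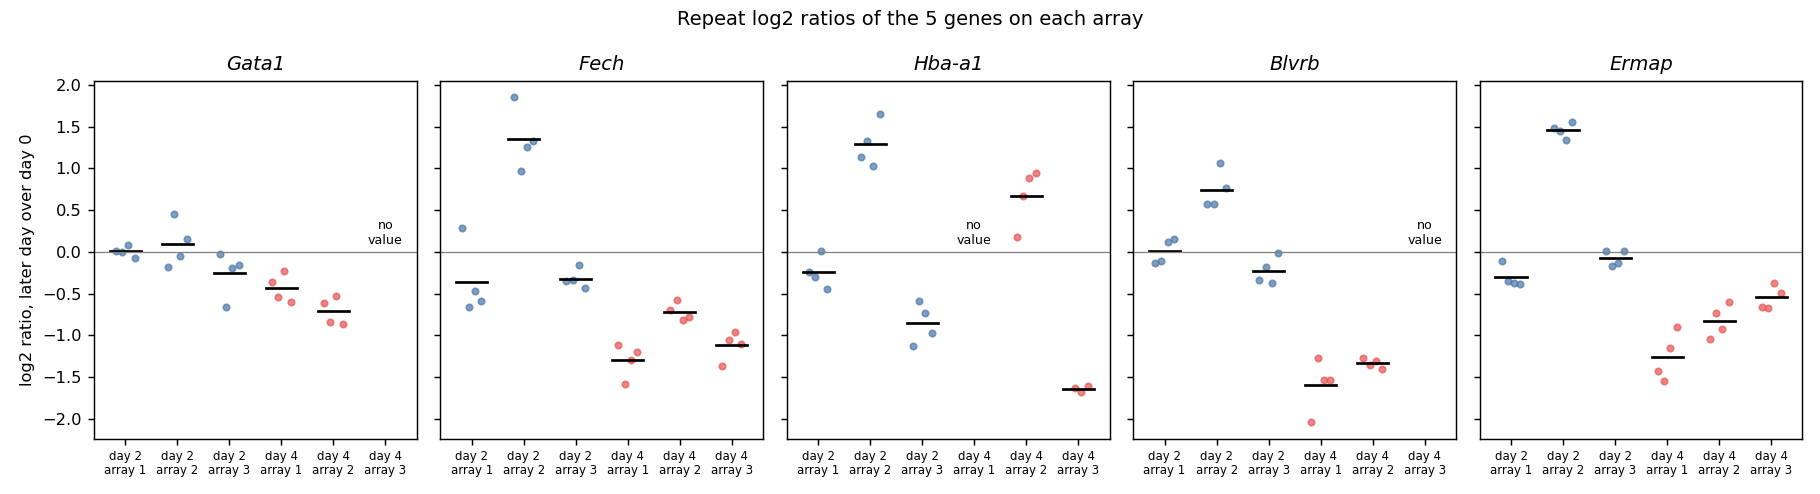
The vertical axis is the log2 ratio of the later day over day 0, and the horizontal axis is the array, with day 2 in blue and day 4 in red. Points are the 4 repeats on a slide (3 for Hba-a1 on day 4 array 3) and black bars their mean, and Blvrb, Fech, Ermap and Gata1 lie below 0 on every day 4 array with a value, while Hba-a1 lies at 0.67 and −1.64.

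Gata1, the zinc finger factor that drives erythroid and megakaryocyte genes, had log2 ratios of 0.01, 0.10 and −0.26 on day 2 arrays 1, 2 and 3, and −0.43 and −0.71 on day 4 arrays 1 and 2. It had no value on day 4 array 3, where its probe carried a flag of the authors that the headers do not define. Both day 4 values were below all 3 day 2 values. The mean was −0.05 ± 0.18 at day 2 (SD, n = 3) and −0.57 ± 0.20 at day 4 (SD, n = 2). Against day 0, limma gave −0.57 at day 4 with a 95% interval from −0.98 to −0.16 and an adjusted p of 0.352. Gata1 was a dim probe, with a mean log2 intensity of 8.18 to 9.54 over its arrays and repeat SDs of 0.0618 to 0.274 within a slide. Its value on day 2 array 2 carried a flag of the authors.

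Fech, the last enzyme of heme synthesis, had values on all 6 arrays: −0.35, 1.35 and −0.32 on day 2 arrays 1, 2 and 3, and −1.30, −0.72 and −1.12 on day 4 arrays 1, 2 and 3. Every day 4 value lay below every day 2 value, and day 2 array 2 stood apart on the high side. The mean was 0.22 ± 0.97 at day 2 and −1.05 ± 0.30 at day 4 (SD, n = 3 each). The fitted day 4 difference was −1.05 (95% interval −1.90 to −0.19, 2.06-fold lower than day 0), with an adjusted limma p of 0.421. The spread of the day 2 arrays enters this fit. With the 3 day 4 arrays alone the SE was 0.141 and the adjusted limma p 0.0361.

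Hba-a1, the adult alpha chain of hemoglobin, was the gene whose arrays differed most. It had −0.24, 1.29 and −0.86 on day 2 arrays 1, 2 and 3, and 0.67 and −1.64 on day 4 arrays 2 and 3. The day 4 values lay on both sides of 0, and the ages overlapped. The mean was 0.06 ± 1.10 at day 2 (SD, n = 3) and −0.48 ± 1.63 at day 4 (SD, n = 2). The 95% interval of the day 4 difference reached from −2.34 to 1.37 (adjusted limma p 0.887). With the array number as a block the day 4 difference was −0.64 ± 0.19 (SE, adjusted limma p 0.499). The block takes the differences between array numbers out of this SE, although the day 4 values were 0.67 and −1.64. In that fit the missing value on day 4 array 1 is in effect filled from day 2 array 1, whose direction is open. On both array numbers with values at each age, day 4 lay below day 2 in the stated direction, at 0.67 against 1.29 on array 2 and −1.64 against −0.86 on array 3. Day 2 array 2 and day 4 array 2 had different day 0 RNAs. Both arrays that carried the shared day 0 RNA, array 3 of day 2 and of day 4, gave Hba-a1 values below 0. Without them Hba-a1 had a single day 4 value, 0.67, and was not tested.

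The Hba-a1 probe was very bright, with a mean log2 intensity between 14.2 and 15.6 on its 5 arrays. On day 2 array 1 its 15.593 was the highest of any probe. It had no value on day 4 array 1, where 497 probes had none. Those 497 probes were bright elsewhere: their median mean log2 intensity on day 4 array 2 was 14.5, against 9.64 for the 7775 probes with a value. The part of signal brightness in the Hba-a1 ratios was not tested.

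Blvrb, the biliverdin and flavin reductase that is abundant in red cells, had the lowest day 4 mean of the group. Its log2 ratios were 0.01, 0.74 and −0.23 on day 2 arrays 1, 2 and 3, and −1.59 and −1.33 on day 4 arrays 1 and 2. The day 4 values were close to each other and more than 1 log2 unit below the lowest day 2 value. Like Gata1 it had no value on day 4 array 3. The mean was 0.17 ± 0.51 at day 2 (SD, n = 3) and −1.46 ± 0.19 at day 4 (SD, n = 2). The fitted day 4 difference of −1.46 (95% interval −2.14 to −0.78) was 2.75-fold below day 0. Its limma p was 0.00257 unadjusted, rank 139 of the 8135 probes, and 0.151 adjusted. It passed when the arrays were scaled to a common spread (−1.79 ± 0.24, adjusted limma p 0.0495) and with the day 4 arrays alone (SE 0.145, adjusted limma p 0.0276).

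Ermap, an immunoglobulin-family protein of the red cell surface, had −0.30, 1.45 and −0.07 on day 2 arrays 1, 2 and 3. On day 4 arrays 1, 2 and 3 it had −1.26, −0.82 and −0.55. As with Fech, every day 4 value lay below every day 2 value and day 2 array 2 was the high one. The mean was 0.36 ± 0.95 at day 2 and −0.88 ± 0.36 at day 4 (SD, n = 3 each). The day 4 difference had a 95% interval from −1.73 to −0.02 and an adjusted limma p of 0.528. Ermap was dim, with a mean log2 intensity between 8.29 and 9.58, and its value on day 2 array 2 carried a flag of the authors, as that of Hba-a1 did.

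**Figure D2:**
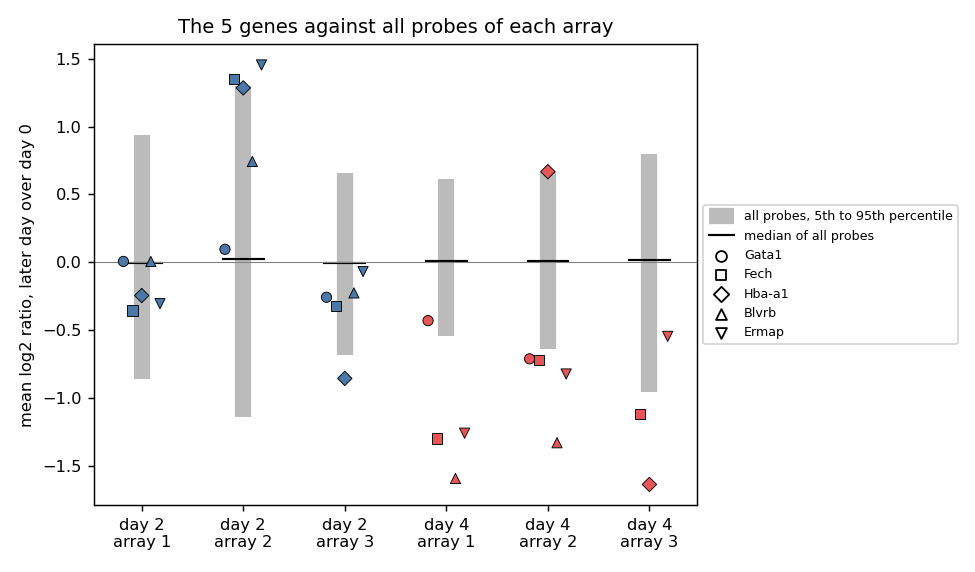
Points are the mean log2 ratios of the 5 genes on each array (blue for day 2, red for day 4, 1 symbol per gene) and grey bars run from the 5th to the 95th percentile of all probes. On day 4 array 1, Blvrb, Fech and Ermap lie below the 5th percentile of −0.54, and on day 2 array 2 Fech and Ermap lie above the 95th percentile of 1.30.

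With the arrays in the stated direction, day 4 was the lowest age in the fits of all 5 genes. Neither day 2 nor day 0 differed from the other beyond the spread of the day 2 arrays. For Hba-a1, day 4 lay above day 2 with the sign of day 2 array 2 turned (0.31) or without that array (0.066). At day 2 the fitted log2 ratios were −0.05 ± 0.13 for Gata1, 0.22 ± 0.35 for Fech, 0.06 ± 0.59 for Hba-a1, 0.17 ± 0.22 for Blvrb and 0.36 ± 0.35 for Ermap (SE, n = 3 each). Of the 5 genes 1 had a mean below 0, against 47.6% of all probes, and none was below 0 on all 3 arrays, against 7.33%. No probe of the 8135 passed at day 2 by limma, while 231 (2.84%) had an unadjusted p under 0.05, none of them a member. The adjusted limma p of the 5 genes was at least 0.966.

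The positive day 2 means of Fech, Blvrb, Ermap and Hba-a1 rested on array 2. On that array all 5 genes were above 0, against 51.6% of probes, and all 5 had their highest day 2 value there, against 41.7% of probes. Without that array the day 2 log2 ratios were −0.34 for Fech, −0.11 for Blvrb, −0.19 for Ermap and −0.55 for Hba-a1. With the sign of array 2 turned they were −0.68, −0.32, −0.61 and −0.80, in the same order. With the sign of array 1 turned they were 0.46, 0.17, 0.56 and 0.22. Means below 0 were then found for 5 of the 5 genes with array 2 turned and 1 of the 5 with array 1 turned, against 49.3% of all probes in both cases. Gata1 had −0.12 with the sign of array 2 turned and −0.06 with that of array 1 turned. No gene of the group passed the test at day 2 under any of these settings.

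Day 4 was set against day 2 through day 0, and a dye bias that is the same on every array drops out of this difference. All 5 genes were lower at day 4 in the fit, against 53% of all probes. The log2 difference was −1.64 ± 0.34 for Blvrb, −1.27 ± 0.50 for Fech, −1.24 ± 0.50 for Ermap, −0.52 ± 0.21 for Gata1 and −0.55 ± 0.93 for Hba-a1 (SE). Without day 2 array 2 it was −0.71 for Fech, −0.69 for Ermap and 0.066 for Hba-a1. No probe passed limma in this comparison (percent called 0), and 215 probes had an unadjusted p under 0.05. A lower signal at an unadjusted p under 0.05 was found for 0.676% of probes and for 3 of the 5 genes, Blvrb, Fech and Ermap. An unadjusted p under 0.05 in either direction was found for 4 of the 5 genes (931 probes in all) with array 1 of day 2 turned, and for 1 of the 5 (721 probes in all) with array 2 turned. Every day 4 value was below every day 2 value for 3.98% of probes and for 4 of the 5 genes, all but Hba-a1. Turning array 1 of day 2 left 4 of 5 genes and 8.16% of probes in that count, and turning array 2 left 2 of 5 genes (Blvrb and Gata1) and 9.26% of probes. With the sign of day 2 array 1 turned the differences of the 5 genes, in the order above, were −1.63, −1.51, −1.44, −0.51 and −0.71. With the sign of array 2 turned they were −1.14, −0.37, −0.27, −0.45 and 0.31. These values share the day 4 arrays with the comparison against day 0 and are no separate evidence.

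**Figure D3:**
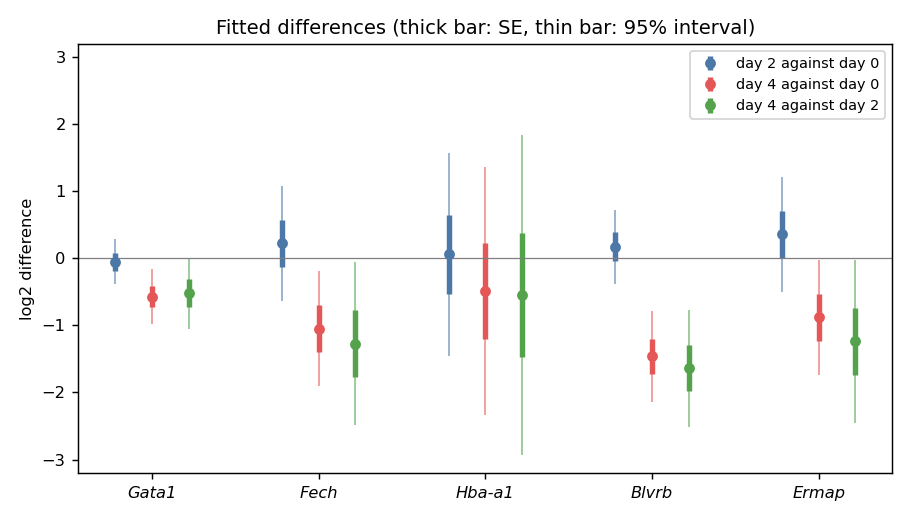
The vertical axis is the fitted log2 difference for each gene, for day 2 against day 0 (blue), day 4 against day 0 (red) and day 4 against day 2 (green), with thick bars for the SE and thin bars for the 95% interval. The day 4 interval lies below 0 for Gata1, Fech, Blvrb and Ermap and spans 0 for Hba-a1.

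The genes were unlike in how closely they followed each other over the arrays. The measure was the root mean square (RMS) difference of log2 ratios over the arrays that both probes share, with 0 for identical values. Fech and Ermap differed by 0.265 over 6 arrays, and Ermap was number 3 in nearness to Fech among 3048 named probes compared. Blvrb differed by 0.440 from Fech and by 0.446 from Ermap over 5 arrays, the 2 members nearest to it. Gata1 was farther from all of them, at 0.656 from Blvrb, 0.701 from Fech and 0.732 from Ermap. Hba-a1 was 0.706 from Fech and 0.902 from Ermap.

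A single other gene was the nearest to Fech, Blvrb and Ermap alike: tartrate-resistant acid phosphatase 5, an enzyme of osteoclasts and macrophages. It differed by 0.107 from Fech, 0.202 from Ermap and 0.405 from Blvrb over 5 arrays, and its values were −0.21, 1.19 and −0.38 on day 2 arrays 1, 2 and 3 and −1.25 and −0.67 on day 4 arrays 1 and 2. Glutathione peroxidase 1, Gpx1, which removes peroxide in red cells and other cells, was next nearest to Fech (0.247), and the ubiquitin-conjugating enzyme E2H followed Fech in nearness to Ermap (0.320). Gata1 lay nearest to the Hermansky-Pudlak syndrome 1 homolog (0.0726), the B-cell receptor-associated protein Bcap31 (0.0988) and polypeptide E of RNA polymerase II (0.106). On day 4 array 2 these probes had −0.66, −0.56 and −0.75 in the same order, against −0.71 for Gata1. Hba-a1 lay nearest to a probe of fibroblast growth factor inducible 14 (0.335), of an ADP-ribosylation-like factor 6 interacting protein (0.444) and of the beta catalytic subunit of protein phosphatase 3 (0.481). The other 2 probes of fibroblast growth factor inducible 14 had −1.34 and −0.97 on day 2 array 2, against 0.56 for the near one, so that this likeness rests on 1 probe. So does that of protein phosphatase 3, whose other probe had −0.85 there, against 0.93 for the near one. The other probe of the ADP-ribosylation-like factor 6 interacting protein had 1.17 there, against 1.34 for the near one.

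**Figure D4:**
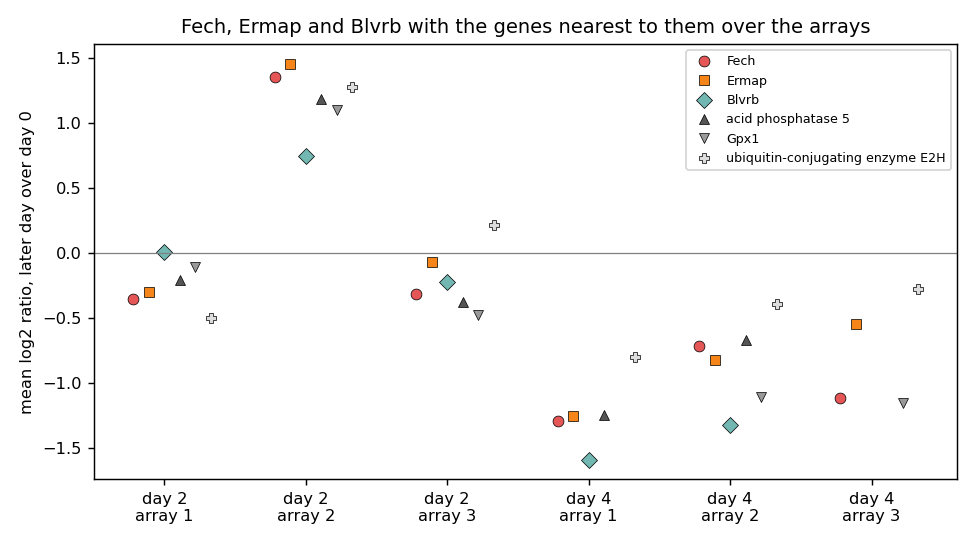
The mean log2 ratio over day 0 is plotted for each array, for Fech, Ermap, Blvrb and the 3 other genes nearest to them. All of them are above 0.7 on day 2 array 2 and below 0 on every day 4 array with a value.

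Other genes of the same roles were taken from 7 lists of red cell, heme and iron genes, also chosen with earlier results of these data known. Beside the 5 genes, 24 of their 117 genes were measured. At day 4, 0 of the 24 passed the test in either direction, and 18 had a log2 ratio below 0, against 50.2% of all probes, with a median of −0.23 against −0.0013 over all probes. An unadjusted p under 0.05 with a lower signal was found for 5 of the 24, against 4.29% of all probes, and with a higher signal for 0 of the 24, against 407 of the 8135 probes.

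In heme synthesis 4 genes beside Fech were measured out of 14 listed, all with means below 0 at day 4. Abcb6, a porphyrin transporter, had −0.43 ± 0.15 (SE, n = 3, adjusted limma p 0.438). Alad, the enzyme that joins 2 molecules of aminolevulinate, had −0.43 ± 0.38 with the brighter of its probes and −0.17 ± 0.19 with the other. Cpox, the coproporphyrinogen oxidase, had −0.22 ± 0.22. Fech had the lowest mean of the 5 measured heme synthesis genes.

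The other 2 measured genes of the heme breakdown list, which holds Blvrb, had means above 0 at day 4, and neither passed the test. Hmox1, the inducible heme oxygenase, had −0.95, 1.22 and 2.44 on day 4 arrays 1, 2 and 3, with a fitted 0.90 ± 0.61 (SE, adjusted limma p 0.727). The 3 day 4 arrays did not share a sign, and the day 2 arrays had −0.63, 0.44 and −0.36. Hmox2, the constitutive form, had 0.14 ± 0.11. Of the transcription factor list, Ldb1, a partner of Gata1, had −0.24 ± 0.44 and Gata2, which acts earlier in blood progenitors, had −0.20 ± 0.24.

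Among genes of the red cell membrane, the glucose transporter gene Slc2a1 had −0.26 ± 0.11 and Bsg −0.59 ± 0.63 at day 4. Among red cell enzymes, Gpx1 had −1.11 and −1.16 on day 4 arrays 2 and 3 and a fitted −1.13 ± 0.39 (SE, n = 2, adjusted limma p 0.471). Bnip3l, which clears mitochondria from maturing red cells, had −0.45 ± 0.30, and Cyb5r3, the reductase that keeps hemoglobin iron reduced, had −0.19 ± 0.50. Gpx1 and Bsg were among the bright probes without a value on day 4 array 1.

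Of 25 iron genes 10 were measured, 7 of them with a mean below 0 at day 4, and the median was −0.25. Both ferritin chains had means below 0. Ftl1, the light chain, had −0.93 ± 0.29 and Fth1, the heavy chain, −0.80 ± 0.26 (SE, n = 2 each, adjusted limma p 0.423 and 0.432). The other 3 probes of Ftl1 had −0.82, −0.87 and −0.96. Ncoa4, the receptor that delivers ferritin to lysosomes, had −0.74 ± 0.29 (n = 3, adjusted limma p 0.518). Unlike Fech and Ermap, both ferritin chains were also below 0 on all 3 day 2 arrays in the stated direction. Fth1 had −0.09, −0.54 and −1.09 there and Ftl1 −0.13, −0.81 and −1.31. This contrast depends on that direction. If array 2 is reversed, Fech and Ermap are below 0 on all 3 day 2 arrays, and both ferritin chains are above 0 on array 2. If array 1 is reversed, both ferritin chains are above 0 on array 1.

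**Figure D5:**
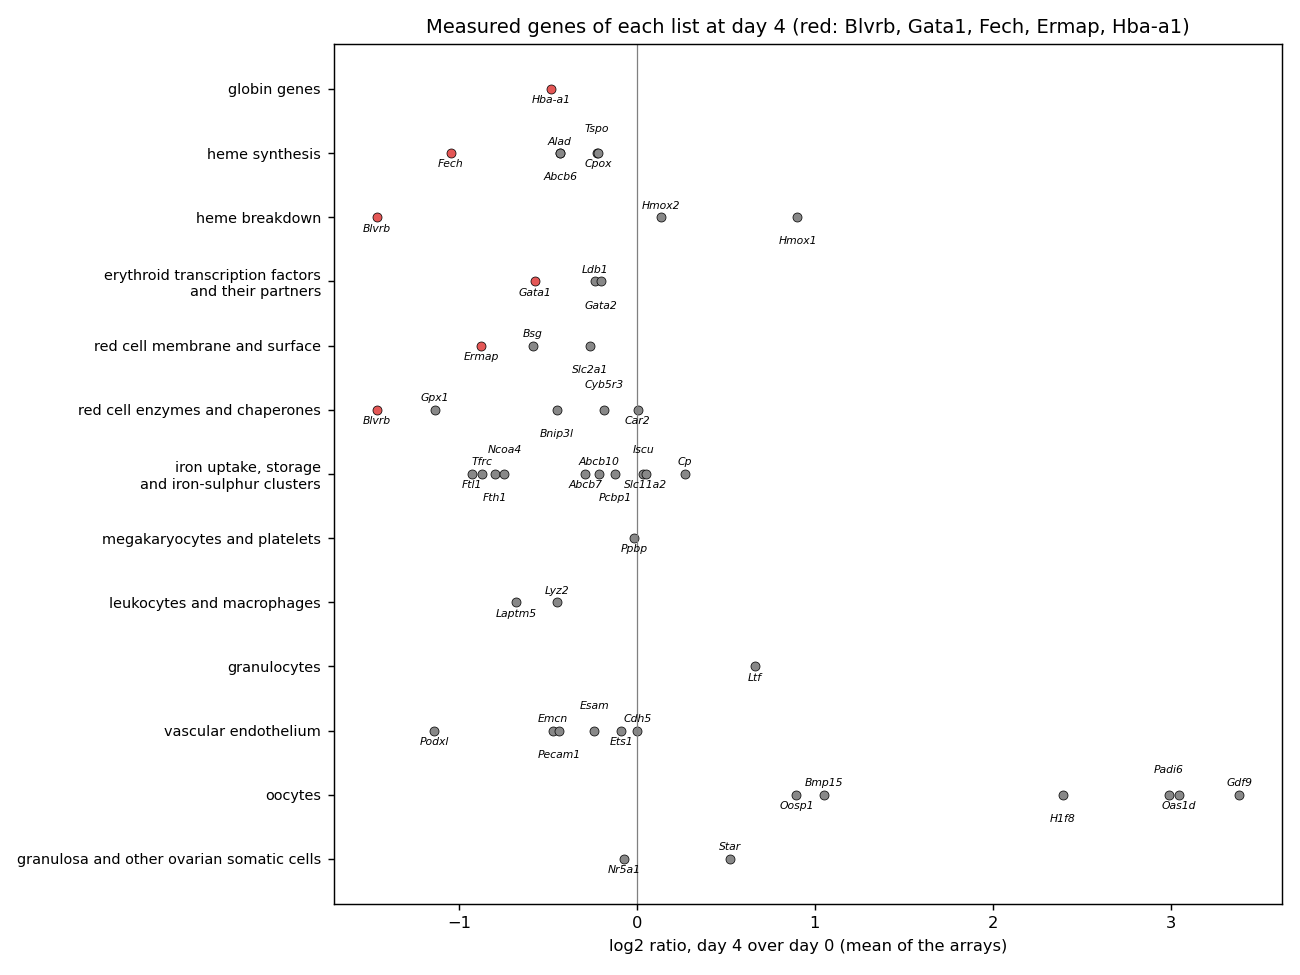
Each point is the day 4 log2 ratio over day 0 of a measured gene, by list, with the 5 genes in red and other genes in grey. The heme synthesis points all lie below 0, the oocyte points all lie above 0.8, and of 6 endothelial genes 5 lie below 0.

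Markers of other cell types that an ovary sample can hold were read on the same arrays. Of 6 measured endothelial genes 5 had means below 0 at day 4, with a median of −0.34, none past the test. Podxl had −1.14 ± 0.18 (SE, n = 2, adjusted limma p 0.105), Emcn −0.47 ± 0.17 and Pecam1 −0.44 ± 0.17. The endothelial median ran from −0.48 to −0.16 over the day 4 arrays and from −0.42 to −0.13 over the day 2 arrays. On day 2 array 2, where Fech, Ermap and Hba-a1 were above 1, the endothelial median was −0.42.

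Of 17 leukocyte and macrophage markers 2 were measured: Laptm5 had −0.68 ± 0.18 (n = 2, adjusted limma p 0.311, with −0.22 ± 0.15 for its dimmer probe) and Lyz2 −0.45 ± 0.43. The platelet gene Ppbp had −0.02 ± 0.43 and the granulocyte gene Ltf 0.66 ± 0.22. All 6 measured oocyte genes had means above 0, with a median of 2.69, and those with the smallest p by the brightest probe of each gene were H1f8 (2.39 ± 0.12, adjusted limma p 0.00862), Oas1d (3.05 ± 0.30, adjusted limma p 0.0208) and Oosp1 (0.90 ± 0.13, adjusted limma p 0.0639). The 3 probes of Gdf9 had 3.38 ± 0.52 (adjusted limma p 0.0762, the brightest), 2.93 ± 0.18 (adjusted limma p 0.00874) and 1.81 ± 0.34 (adjusted limma p 0.128). Of the ovarian somatic markers Nr5a1 had −0.07 ± 0.42 and Star 0.52 ± 0.30. The part of these cell types in the values of the 5 genes was not tested.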

How the data were processed

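Ovary RNA was measured on 2-colour cDNA arrays with 8272 probes. The authors deposited 4 repeat log2 ratios per probe and array (later day in Cy5 over day 0 in Cy3, per the file headers) with flags that the headers do not define. The authors' own p-values of the 4 repeats, a column named in the file headers, were not used. The log2 ratios as deposited had medians near 0 on each array, their normalization is not given in the sources used here, and the submitters' processing notes name R 1.7.1 without its role. Here the mean of the repeats was taken, flagged values were kept, and the 8135 probes with values on at least 2 arrays of each age entered limma (version 3.58.1, R 4.3.3; 1 mean per age over 6 arrays, 2-sided, Benjamini-Hochberg over all probes tested, threshold 0.05). The prior had 2.03 degrees of freedom. Precision is limited by how few arrays there are: over all probes the SE had a median of 0.19 (log2) at day 4, 0.17 at day 2 and 0.26 between these ages, and an exact permutation test of 3 against 3 arrays cannot go below p 0.1. The labels call the later RNAs biological replicates.

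The members and gene lists were chosen with earlier results of these data known. The text names every member, the up to 3 other measured genes of each list with the smallest unadjusted day 4 p (brightest probe per gene), and the 3 named genes nearest to each member over at least 5 shared arrays. Same-numbered arrays of the ages deviated together (r 0.317, 0.120 and 0.560 over probes for numbers 1, 2 and 3). Per the file headers number 3 shares a day 0 RNA, while numbers 1 and 2 had a different day 0 RNA at each age. The numbers were taken to pair the arrays. For numbers 1 and 2 this rests on the correlations alone, with the direction of their day 2 arrays open. With the number as a block 21 probes passed at day 4, against 39 without it, and no member passed. The code was tested on simulated data.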

Additional observations from a re-analysis of the deposited data

How the results depend on the processing

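Settings other than those named here kept the direction of each of the 5 genes and its side of the threshold. At day 4 the 5 means stayed below 0 in every setting that tested them. Values on all 6 arrays existed for 2 of the 5, and leaving out 1 array tested 2 to 5 of them, all below 0. Of the 5 genes, 1 passed with arrays scaled to a common spread, and 2 with the day 4 arrays alone. Leaving out day 2 arrays 1 and 2 gives the same fit at day 4 as the day 4 arrays alone, since 1 day 2 array adds no spread. The number of all probes passing at day 4 was 39, and it was 96 with scaling, 126 with a trended and robust prior and 166 with the day 4 arrays alone (33 of them lower). It was 0 with the sign of day 2 array 2 turned, 0 without array 3 of both ages, 21 with the replicate block, 45 when day 2 array 1 was turned, and 0 to 71 with 1 array left out (71 without day 2 array 1, 16 without day 2 array 3, 0 without any 1 of the day 4 arrays). The replicate block changed no call of the 5 genes at the adjusted threshold. At an unadjusted p under 0.05 it moved the count of the 5 genes at day 4 to 5, against 4 without it, by adding Hba-a1. The SE with the block leaves out differences between array numbers.

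At day 2 the number of the 5 genes below 0 was 1, and it was 3 with scaling, 3 without flagged values, 0 of 2 with values on all 6 arrays, 5 with the sign of array 2 turned, 5 without arrays 1 and 2, 0 of 4 without array 3 of both ages and 0 to 5 with 1 array left out. Scaling gave −0.0052 for Fech and −0.19 for Hba-a1. Leaving out flagged values gave −0.19 for Ermap and −0.55 for Hba-a1. Turning array 2 gave −0.61 for Ermap, −0.68 for Fech, −0.32 for Blvrb and −0.80 for Hba-a1, and leaving out arrays 1 and 2 gave −0.068, −0.32, −0.23 and −0.86 in the same order. With 1 array left out, Ermap ran from −0.19 to 0.69, Fech from −0.34 to 0.51, Blvrb from −0.11 to 0.37, Hba-a1 from −0.55 to 0.52 and Gata1 from −0.13 to 0.051. The lowest value of each was that without day 2 array 2. Gata1 was 0.051 without array 3 of both ages.

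For day 4 against day 2, the number of genes below 0 was 5, and 2 of 2 with values on all 6 arrays and 2 to 5 of those tested with 1 array left out. Hba-a1 turned to 0.066 without flagged values, 0.31 with the sign of day 2 array 2 turned, 0.37 without day 2 arrays 1 and 2 and −1.004 to 0.066 with 1 array left out, the highest without day 2 array 2. Without that array Fech was −0.71 and Ermap −0.69, against −1.27 and −1.24 with it. With a trended and robust prior 1 probe passed, none of the 5. The cause of these shifts was not tested, except that fewer arrays or probes with values leave fewer of the genes to test. Taking the mean over the probes of a gene moved list medians at day 4 to −0.30 for heme synthesis and −0.27 for iron genes. The files gave no slide, print or scan batch, so that no such block was run.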
